A study of Homo sapiens with 6 samples.

Results

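Expression of the genes that move calcium across membranes, or sense it, was examined in U87-MG, an established human glioblastoma cell line. The set holds 55 genes, taken by symbol from the 61806 genes of the deposited RNA sequencing table. It covers 8 pore subunits and 8 auxiliary subunits of voltage-gated calcium channels, 6 release channels of the endoplasmic reticulum (ER), 8 calcium pumps, 3 sodium-calcium exchangers, 5 genes of store-operated entry, 8 TRP and PIEZO channels, 2 genes of the mitochondrial uniporter, and 7 genes of calmodulin and its kinases. Total RNA was sequenced from 3 libraries of the negative control (NC), whose genotype label is wildtype, and from 3 libraries labelled GRIK1 siRNA, whose genotype label is GRIK1 knockdown (NC 1 to 3 and siRNA 1 to 3 below, the latter also called the labelled libraries). GRIK1 encodes a kainate-type glutamate receptor subunit, and the comparison asks how its knockdown alters gene expression in these cells. The titles name siRNA while the description of the series names shRNA. The study's methods list siRNAs under the same names as the titles and its text takes the first forward to later work, and the labels do not say whether the libraries are repeats of that siRNA or hold different siRNAs. Nothing ties the libraries to separate cultures, so the p-values measure the spread between these samples, which may be technical.

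A resting cell keeps free calcium low in the cytosol and high outside the cell and in the ER. Voltage-gated channels, most TRP and PIEZO channels, and ORAI channels opened by the ER sensors STIM1 and STIM2 let calcium in. IP3 receptors and ryanodine receptors release it from the ER. SERCA pumps return it to the ER, PMCA pumps and sodium-calcium exchangers expel it, the uniporter carries it into mitochondria, and calmodulin passes the signal to kinases such as CaMKII. In glioma cells this system is best known for its part in migration and proliferation.

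The promoters of CACNA1C, the member that passed the test, and of ITPR1, the most abundant by FPKM of the members whose labelled libraries all lay above NC, are shown because the results turn on these genes. Both come from RefSeq on GRCh38.p14 and run from 250 bases before to 50 bases after the transcript start, 5′ to 3′. Capitals mark the SP1 box GGGCGG in CACNA1C, on chr12:2052737-2053036 (+), and the TATA run TATATAA in ITPR1, on chr3:4493098-4493397 (+).
CACNA1C: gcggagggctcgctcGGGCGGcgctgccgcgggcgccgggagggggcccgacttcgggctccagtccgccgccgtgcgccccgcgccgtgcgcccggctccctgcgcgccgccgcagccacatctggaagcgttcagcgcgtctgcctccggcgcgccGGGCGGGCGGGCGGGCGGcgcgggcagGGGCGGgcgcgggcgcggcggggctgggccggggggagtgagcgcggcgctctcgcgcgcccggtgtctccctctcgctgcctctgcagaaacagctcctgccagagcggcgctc
ITPR1: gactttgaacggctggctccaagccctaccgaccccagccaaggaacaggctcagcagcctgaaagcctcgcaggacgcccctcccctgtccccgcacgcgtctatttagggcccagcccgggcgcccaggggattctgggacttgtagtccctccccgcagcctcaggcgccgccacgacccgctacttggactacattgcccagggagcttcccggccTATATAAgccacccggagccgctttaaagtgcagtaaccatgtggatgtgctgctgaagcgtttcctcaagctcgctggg
The CACNA1C window was 82.3% G or C with 54 CG dinucleotides and held 6 SP1 boxes, some of which overlap. The ITPR1 window was 63.3% G or C with 19 CG dinucleotides and held no SP1 box on either strand. Over all promoters in RefSeq the medians were 58.7% and 14. The start of the CACNA1C window lies inside the span of the gene in the deposited table, so the gene may have other starts.

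Promoters were found for 46 of the 55 members, and 28 tested members had 41 entries, so that some genes count more than once. Read on both strands, GGGCGG (complement CCGCCC) was in 75.6% of those 41 promoters against 45.0% of 35116 promoters of the same length. The cyclic AMP response core TGACG (complement CGTCA) was in 24.4% against 24.6%, and the NFAT core TGGAAA (complement TTTCCA), the letters read by the calcium-driven NFAT factors, in 9.76% against 20.7%. TATATAA (complement TTATATA), searched for after the ITPR1 sequence had been seen, was in 2.44% against 2.57%. CACNA1C and ITPR1 held neither TGACG nor TGGAAA. These are matches of letters and not sites of binding. The 41 promoters belong to tested genes, while the 35116 are not limited to tested genes. The shares therefore cannot set members apart from other tested genes.

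The libraries held between 11099909 and 14006968 counts on genes, with counts on 23902 to 27049 genes. NC 3 stood apart from the rest. Its log2 expression correlated with that of the other libraries at 0.952 to 0.968, against 0.990 between NC 1 and NC 2, and ribosomal protein genes held 9.37% of its counts against 4.79% to 5.50% elsewhere. The common edgeR dispersion was 0.0391 over the 6 libraries and 0.00298 without NC 3, so the fold changes of the tested members are given with and without that library. GRIK1 itself was at 0.233 ± 0.131 FPKM (SD, n = 3) in NC against 0.340 ± 0.0436 FPKM (SD, n = 3) where knockdown was labelled, with 18, 9 and 8 counts against 15, 20 and 20. It was not lower in the libraries so labelled, with a log2 fold change of 0.44 (SE 0.43, edgeR adjusted p = 0.620 without a filter on low values). The groups are therefore named by their labels. The paper reports efficient GRIK1 knockdown in U87-MG cells from its own assays of GRIK1 levels, with its first siRNA the most efficient. Those assays were not re-examined here. Of 6 markers of mesenchymal glioma lines, VIM at 825 to 1076 FPKM, SPARC, TNC and CD44 were high, while CHI3L1 lay at 1.70 to 3.53 FPKM and NES at 0.21 to 0.69 FPKM. Of the 5 tested, SPARC, a matrix protein gene, rose by 1.80 on the log2 scale (edgeR adjusted p = 0.0191), and VIM, CD44, CHI3L1 and TNC were at -0.02, -0.19, 0.02 and 0.50 and did not pass, although CD44 fell by 0.28 without NC 3 (edgeR adjusted p = 0.000205). The astroglial markers AQP4 and ALDH1L1 were at 0, and GFAP lay at 0.05 to 0.28 FPKM and rose when no filter was applied (log2 fold change 1.61, edgeR adjusted p = 0.0109). Of the 4 neuronal markers, SNAP25, at 1.45 to 2.15 FPKM, had a log2 fold change of -0.44 (edgeR adjusted p = 0.0934) and fell by 0.51 without NC 3 (edgeR adjusted p = 0.000124), SYT1 was at 0.92 (edgeR adjusted p = 0.173), and RBFOX3 and STMN2 lay below the testing level. Of 29 cell type markers, 6 had no count in any library, and the part of other cell types in the results was not tested. In bulk RNA, fewer cells of a type and less RNA per cell cannot be told apart.

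Of the 55 members, 32 reached the mean of 0.5 FPKM (counts scaled to exonic length and library total) needed for testing. Among these, 10 lay at or above 10 FPKM, 19 between 1 and 10 FPKM, and 3 below 1 FPKM. CACNA2D3 and TRPV2 reached it only through NC and CAMK2A only through the labelled libraries, the groups where each was higher, so these 3 members had to differ to be tested and their counts among members called are no support. Tested genes were found for 2 of 8 pore subunits, 4 of 8 auxiliary subunits, 3 of 6 ER release channels, 5 of 8 pumps, none of the 3 exchangers, all 5 genes of store-operated entry, 5 of 8 TRP and PIEZO channels, both uniporter genes, and 6 of 7 genes of calmodulin and its kinases. The members together held 0.386% to 0.434% of the counts in 5 libraries and 0.303% in NC 3. By FPKM, the SERCA pump gene ATP2A2, the Golgi pump gene ATP2C1, the calmodulin gene CALM2, the PMCA gene ATP2B1 and the IP3 receptor gene ITPR1 were the most abundant.

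**Figure D1:**
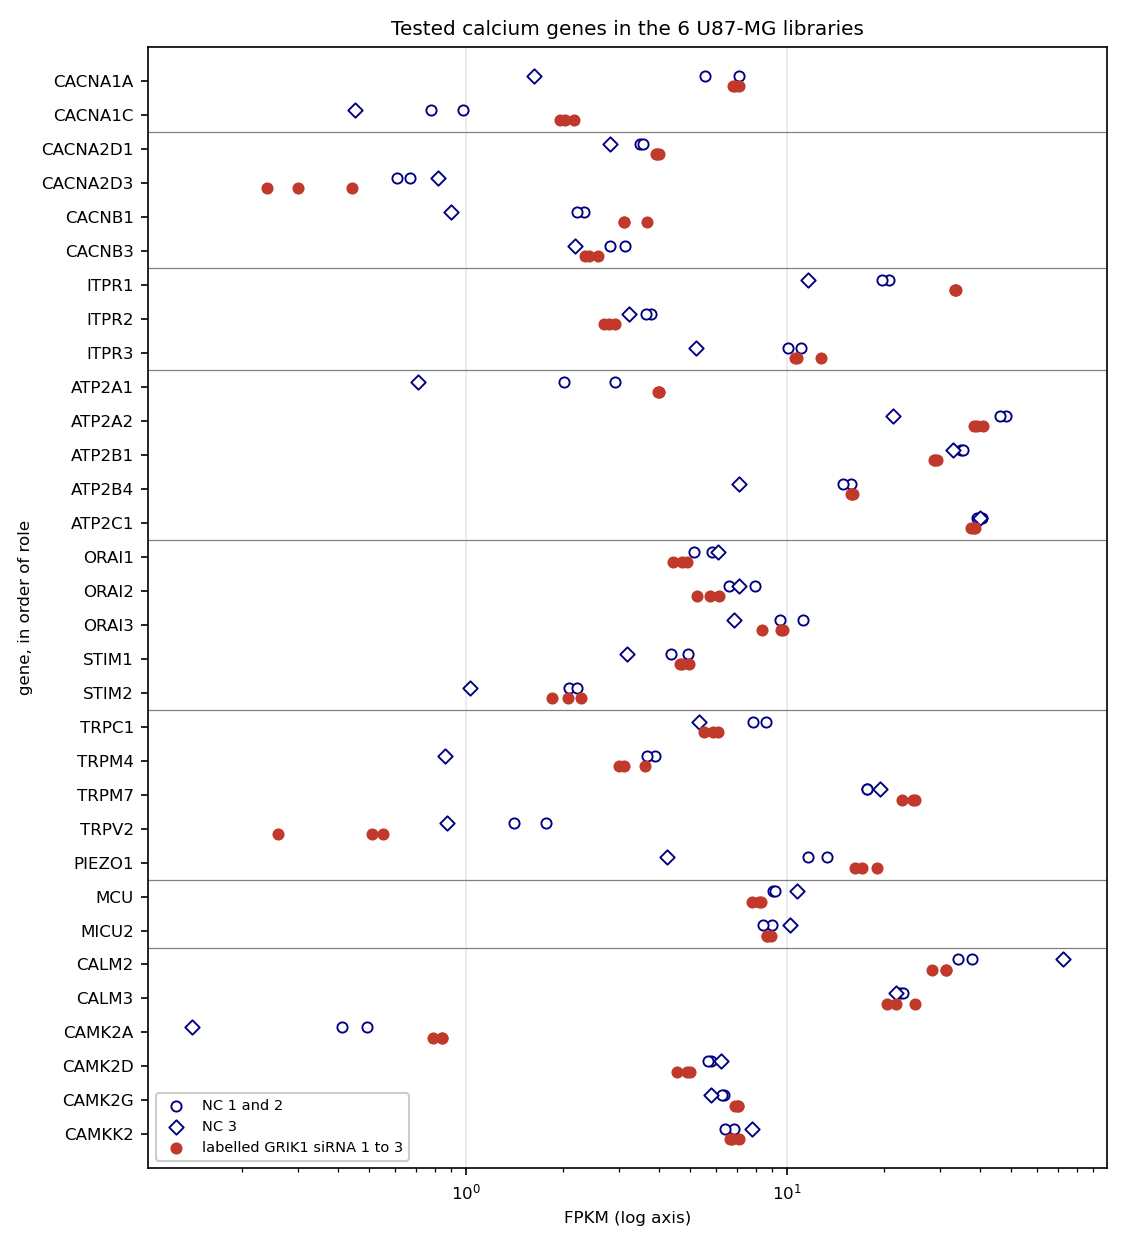
FPKM of the 32 tested members in each of the 6 libraries on a log axis, grouped by role, with points for NC and for libraries labelled GRIK1 siRNA. CALM2, ATP2A2 and ATP2C1 lie furthest to the right, and NC 3 lies well to the left of the other points for CACNA1A, TRPM4 and PIEZO1.

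In the comparison of all 6 libraries, CACNA1C was the member with an adjusted p under 0.05 by edgeR's quasi-likelihood test, with Benjamini-Hochberg adjustment over the 15870 genes tested. That is 1 of 32 tested members (3.12%), beside 3.09% of all tested genes. It was also the 1 member that passed with an absolute log2 fold change over 1, where 1.41% of tested genes did. At an unadjusted p under 0.05 there were 16 of 32 members, beside 25.1% of tested genes, and without NC 3 there were 20 of 32, beside 43.5%. The fitted log2 fold changes were above 0 for 15 members and below 0 for 17, with a median of -0.05. Without NC 3, 17 of 32 members passed. Of these, 7 were higher (21.9%, beside 16.9% of tested genes) and 10 were lower (31.2%, beside 18.3%). In that comparison, 2 members also passed a log2 fold change of 1, CACNA1C and TRPV2, beside 3.09% of tested genes.

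Counts were also compared library by library on CPM, counts scaled to the library total, after TMM scaling (normalised CPM). For 9 members (28.1%) every library labelled GRIK1 siRNA lay above every NC library, as it did for 19.4% of tested genes. For 11 members (34.4%) every one lay below, as for 19.0% of tested genes. Without NC 3 these were 9 (28.1%, beside 28.0%) and 14 (43.8%, beside 28.5%). With and without NC 3, CAMK2A was among the members above NC, and CACNA2D3 and TRPV2 were among those below. These members had to differ to be tested, so their part in these counts is no support. NC 3 was the lowest of the 6 libraries for 15 members (46.9%, beside 36.3% of tested genes) and the highest for 11 (34.4%, beside 35.5%).

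**Figure D2:**
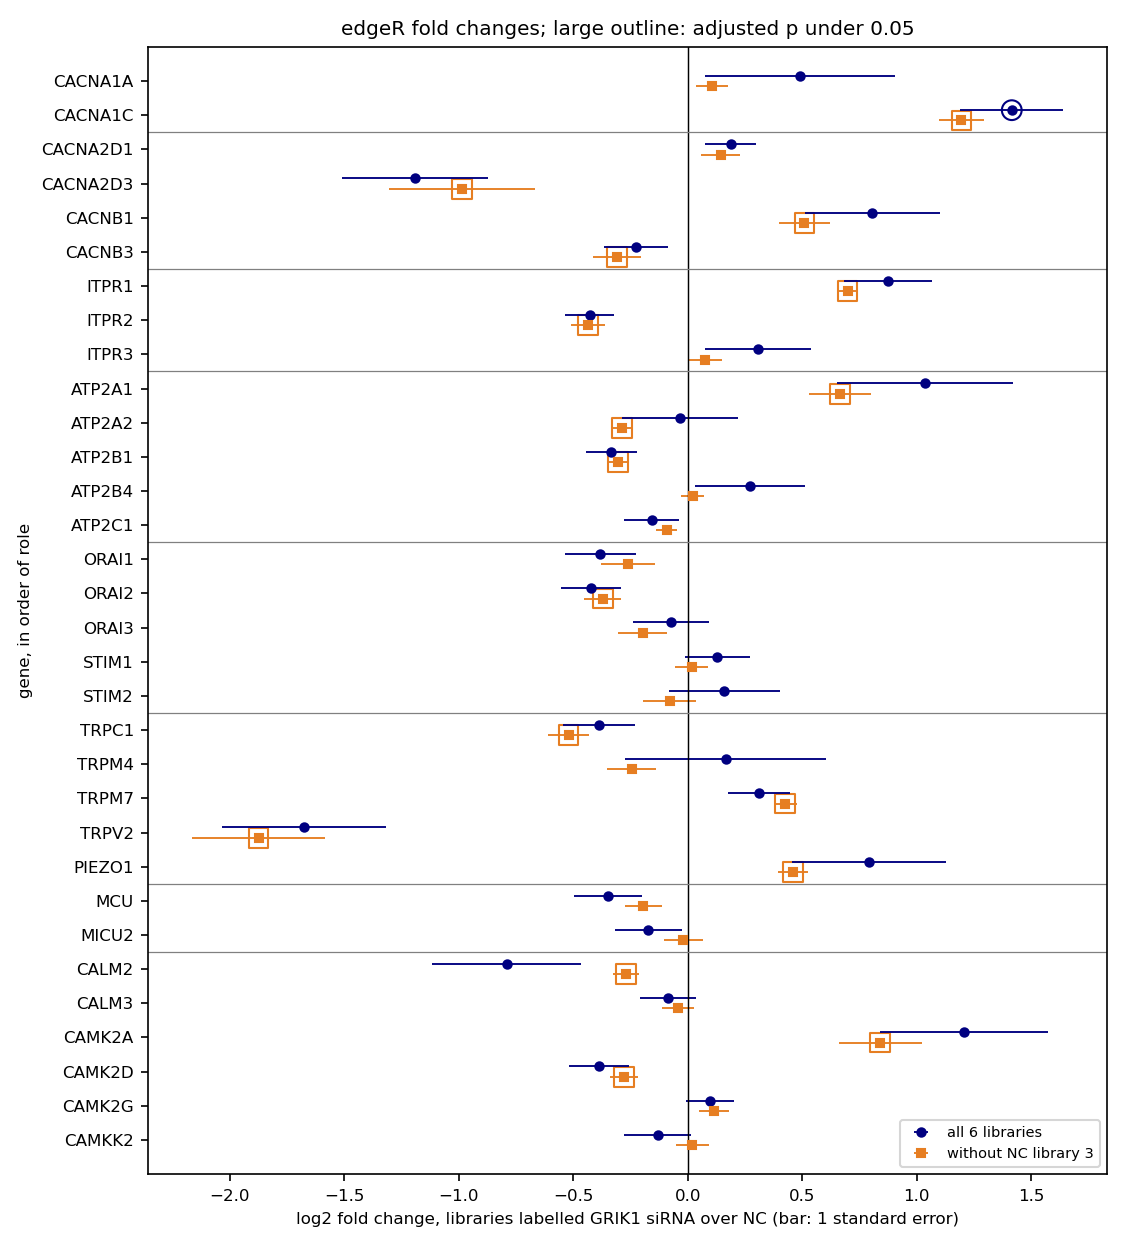
Log2 fold change, libraries labelled GRIK1 siRNA over NC, of the 32 tested members with bars of 1 SE, from edgeR with all 6 libraries and without NC 3. Large outlines mark an adjusted p under 0.05, and without NC 3, where the bars are shorter for most genes, CACNA1C is at 1.20, ITPR1 at 0.70 and TRPV2 at -1.87.

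Among pore subunits of voltage-gated channels, CACNA1C and CACNA1A were expressed at a testable level. CACNA1C (ENSG00000151067, chr12:1970772-2697950, GRCh38) encodes the L-type pore Cav1.2 and was at 0.98, 0.78 and 0.45 FPKM in NC 1 to 3 and at 2.04, 2.17 and 1.96 FPKM in siRNA 1 to 3. Behind these lay 279, 223 and 161 counts in NC against 647, 701 and 663 in siRNA 1 to 3. All 3 labelled libraries were above all 3 NC libraries, and NC 3 was the lowest. The means were 0.737 ± 0.268 FPKM in NC and 2.06 ± 0.106 FPKM in the other group (SD, n = 3 each). CACNA1C rose by a log2 fold change of 1.42 (SE 0.23, edgeR adjusted p = 0.0310), and by 1.20 (SE 0.10, edgeR adjusted p = 6.24e-08) without NC 3. The call rests on having all 6 libraries or leaving out NC 3. The edgeR adjusted p was 0.0636 without NC 1, 0.107 without NC 2, and 0.179, 0.206 and 0.201 without siRNA 1, 2 and 3, while the log2 fold change stayed between 1.20 and 1.64. With the replicate numbers as a block the log2 fold change was 1.46 (SE 0.21, edgeR adjusted p = 0.0923). DCP1B, on the opposite strand within the same span, shares no exon bases with CACNA1C and had 77.6% as many counts. These were 279, 302 and 286 counts in NC and 420, 360 and 429 in the labelled libraries. The antisense CACNA1C-AS1, which does share exon bases with CACNA1C, had 35 counts in all.

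CACNA1A, the pore of P/Q-type channels, was the more abundant of the pair at 7.10, 5.57 and 1.63 FPKM in NC and 7.10, 6.90 and 6.79 FPKM in the labelled libraries. NC 1 equalled the highest labelled library while NC 3 was far below every other library. The log2 fold change was 0.49 (SE 0.41, edgeR adjusted p = 0.476), and 0.10 (SE 0.07, edgeR adjusted p = 0.265) without NC 3. CACNA1A made up 76.5% to 87.1% of the summed FPKM of the 8 pores in NC and 75.4% to 76.6% in the labelled libraries, and CACNA1C 12.0% to 21.1% and 22.0% to 23.7%. Among L-type pores CACNA1C held at least 98.0% in every library. The other 6 pores were below the testing level, and the T-type pore CACNA1G, the one with the most counts, had 5, 4 and 5 counts in NC and 14, 8 and 7 in the labelled libraries.

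Auxiliary subunits carry pores to the membrane and tune their gating. CACNA2D1, the commonest of the 4 alpha2delta genes here, was at 3.48, 3.55 and 2.81 FPKM in NC and 3.91, 3.99 and 3.95 FPKM in the labelled libraries, which lay above all NC libraries. Its log2 fold change was 0.19 (SE 0.11, edgeR adjusted p = 0.327), and 0.14 without NC 3 (edgeR adjusted p = 0.203). CACNA2D3, of the same family, ran the other way at 0.67, 0.61 and 0.82 FPKM in NC and 0.44, 0.24 and 0.30 FPKM in the labelled libraries. All labelled libraries were below all NC libraries. CACNA2D3 had a log2 fold change of -1.19 (SE 0.32, edgeR adjusted p = 0.0862), and it fell by 0.98 on the log2 scale (SE 0.32, edgeR adjusted p = 0.0229) without NC 3, given that it was tested only because NC was above the minimum. The beta subunit gene CACNB1 was at 2.34, 2.22 and 0.90 FPKM in NC and 3.67, 3.11 and 3.11 FPKM in the labelled libraries, again without overlap. Its log2 fold change was 0.81 (SE 0.29, edgeR adjusted p = 0.151), and 0.51 (SE 0.11, edgeR adjusted p = 0.00186) without NC 3. CACNB3, another beta subunit gene, was at 2.82, 3.13 and 2.18 FPKM in NC and 2.57, 2.35 and 2.41 FPKM in the labelled libraries. By normalised CPM, NC 3 lay among the labelled libraries, and the log2 fold change was -0.23 (edgeR adjusted p = 0.344), or -0.31 (edgeR adjusted p = 0.0311) without NC 3. CACNB4, untested, had 58, 44 and 60 counts in NC and 36, 33 and 46 in the labelled libraries.

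The 3 IP3 receptors open on IP3 made by phospholipase C. None of these genes passed with all 6 libraries, and no test compared them with each other. ITPR1 (chr3:4493345-4847506) was at 20.85, 19.75 and 11.62 FPKM in NC and 33.74, 33.40 and 33.38 FPKM in the labelled libraries, from 7435, 7055 and 5230 counts against 13423, 13541 and 14163. The labelled libraries were nearly equal and all above NC, and NC 3 was the lowest. The means were 17.4 ± 5.04 FPKM and 33.5 ± 0.202 FPKM (SD, n = 3 each), and the log2 fold change was 0.88 (SE 0.19, edgeR adjusted p = 0.0570). Without NC 3, ITPR1 rose by 0.70 on the log2 scale (SE 0.05, edgeR adjusted p = 7.75e-09).

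ITPR2 was at 3.78, 3.64 and 3.22 FPKM in NC and 2.79, 2.91 and 2.69 FPKM in the labelled libraries, all of which were lower. Its log2 fold change was -0.43 (SE 0.11, edgeR adjusted p = 0.0744), and it fell by 0.44 on the log2 scale (SE 0.08, edgeR adjusted p = 0.000219) without NC 3. By normalised CPM, NC 3 stood with NC 1 and NC 2 for this gene. ITPR3 was at 11.05, 10.09 and 5.19 FPKM in NC and 12.76, 10.59 and 10.72 FPKM in the labelled libraries, with overlap, a log2 fold change of 0.31 (edgeR adjusted p = 0.426), and 0.08 (edgeR adjusted p = 0.452) without NC 3. UQCC2, on the opposite strand, shares exon bases with ITPR3 and had 16.7% as many counts.

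By share, ITPR1 made up 58.0% to 59.0% of the summed FPKM of the 3 IP3 receptors in NC, NC 3 included, and 68.5% to 71.3% in the labelled libraries. The share of ITPR2 was 10.6% to 16.1% in NC and 5.66% to 6.20% in the labelled libraries, and that of ITPR3 25.9% to 31.0% and 22.6% to 25.9%. The summed FPKM of the family was 35.7, 33.5 and 20.0 in NC and 49.3, 46.9 and 46.8 in the labelled libraries. A share compares paralogs within a library, so the library total does not enter it, but NC 3 can still stand apart. The share of ITPR2 was 16.1% in NC 3 against 10.6% and 10.9% in NC 1 and NC 2. The ryanodine receptors were not tested. RYR2 had 28, 47 and 25 counts in NC and 65, 75 and 72 in the labelled libraries, with a log2 fold change of 0.88 (SE 0.29, edgeR adjusted p = 0.0861) when no filter was applied, and it rose by 0.66 (SE 0.23, edgeR adjusted p = 0.0333) when NC 3 was left out as well. RYR3 had 40, 35 and 25 counts against 50, 66 and 46.

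**Figure D3:**
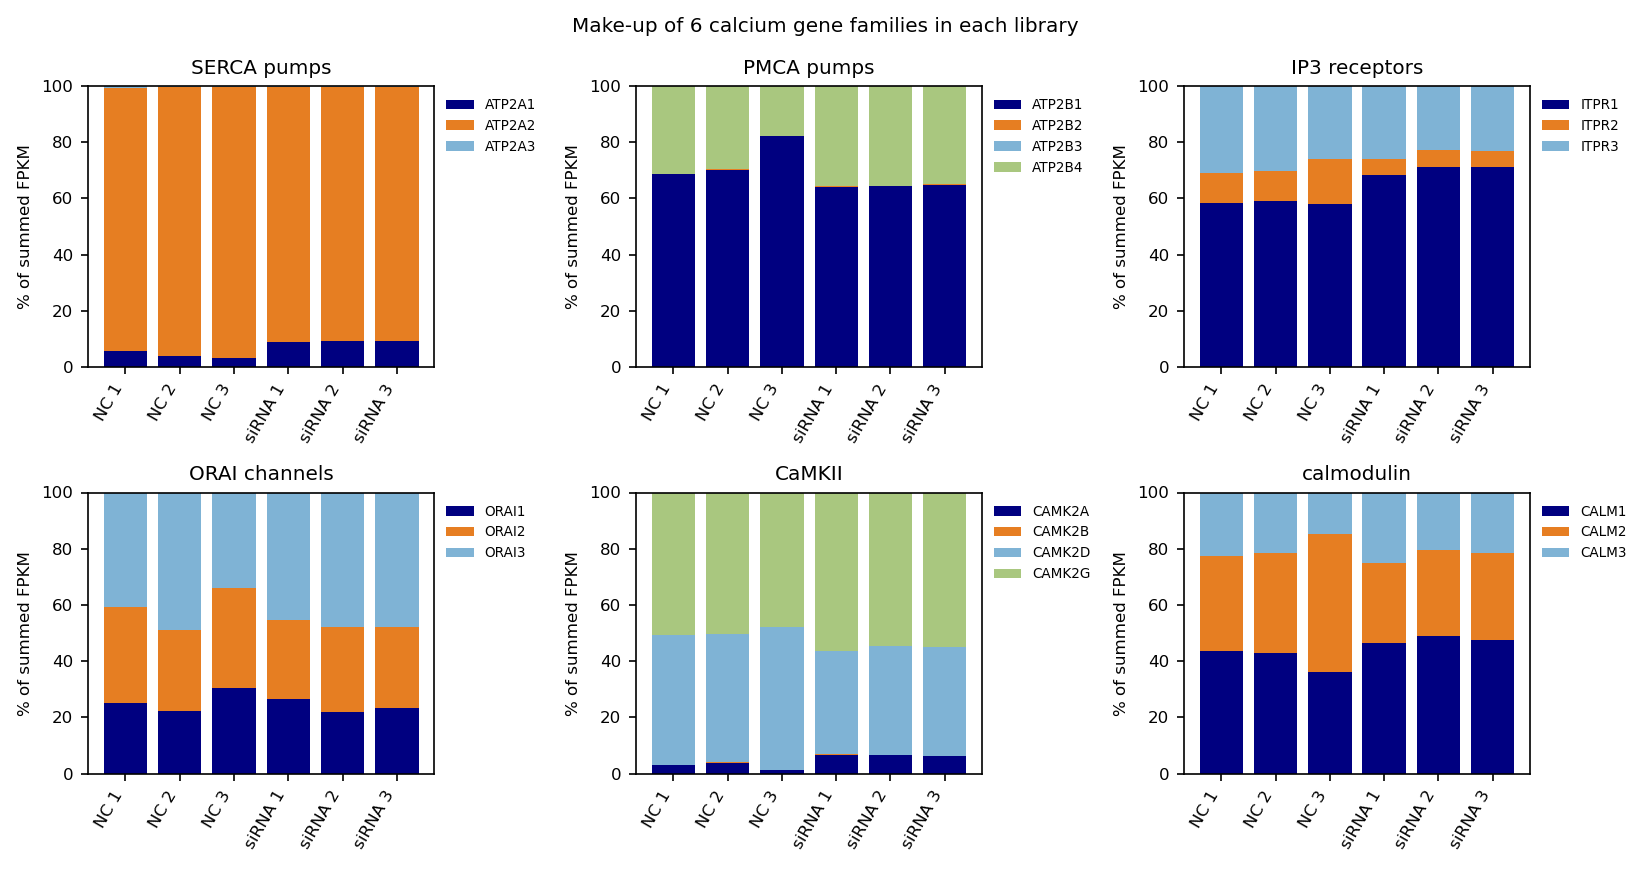
Share of each paralog in the summed FPKM of its family, in percent, in each library for SERCA pumps, PMCA pumps, IP3 receptors, ORAI channels, CaMKII and calmodulin. ITPR1 holds 58.0% to 59.0% of the IP3 receptors in NC and 68.5% to 71.3% in the libraries labelled GRIK1 siRNA.

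Pumps that clear calcium from the cytosol were 3 of the 5 most abundant members. ATP2A2, the SERCA gene of most cells, was at 48.29, 46.22 and 21.37 FPKM in NC and 40.96, 38.27 and 39.08 FPKM in the labelled libraries. The labelled libraries lay between NC 3 and the other NC libraries. The log2 fold change was -0.03 (SE 0.25, edgeR adjusted p = 0.946), and without NC 3 ATP2A2 fell by 0.29 on the log2 scale (SE 0.05, edgeR adjusted p = 0.000173). Its sign turned to 0.13 without NC 1 and 0.10 without NC 2. ATP2A1, the SERCA gene of fast muscle, was at 2.91, 2.02 and 0.71 FPKM in NC and 4.0, 3.98 and 3.96 FPKM in the labelled libraries, all higher. Its log2 fold change was 1.04 (SE 0.39, edgeR adjusted p = 0.157), and 0.66 (SE 0.14, edgeR adjusted p = 0.00101) without NC 3. ATP2A1 is uncertain. RABEP2 and ATP2A1-AS1 on the opposite strand share exon bases with it and had 94.8% and 27.3% as many counts, and no strand setting is given in the sources used here.

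ATP2B1, the main PMCA pump of the plasma membrane, was at 34.78, 35.45 and 32.89 FPKM in NC and 28.80, 28.86 and 29.24 FPKM in the labelled libraries. Every labelled library was lower, and NC 3 stood near the other NC libraries. The log2 fold change was -0.33 (SE 0.11, edgeR adjusted p = 0.131), and it fell by 0.30 on the log2 scale (SE 0.04, edgeR adjusted p = 4.26e-05) without NC 3. ATP2B4 was at 15.85, 14.95 and 7.08 FPKM in NC and 16.03, 15.91 and 15.78 FPKM in the labelled libraries, with a log2 fold change of 0.27 (edgeR adjusted p = 0.502), or 0.02 (edgeR adjusted p = 0.782) without NC 3. ATP2C1, which fills the Golgi, was at 40.61, 39.07 and 39.92 FPKM in NC and 37.44, 38.13 and 38.50 FPKM in the labelled libraries. Its groups did not overlap, but the log2 fold change was -0.16 (edgeR adjusted p = 0.428), and -0.09 (edgeR adjusted p = 0.127) without NC 3.

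Within the SERCA family, the share of ATP2A2 was 93.8% to 96.6% in NC and 90.4% to 90.9% in the labelled libraries, and that of ATP2A1 3.21% to 5.65% and 8.88% to 9.40%, with the uncertainty given above. In the PMCA family ATP2B1 held 68.6% to 82.2% in NC and 64.2% to 64.9% in the labelled libraries, and ATP2B4 17.7% to 31.3% and 35.0% to 35.7%. ATP2A3, untested, had 21, 14 and 4 counts in NC and 9 in each labelled library. Without a filter its log2 fold change was -0.73 (SE 0.53, edgeR adjusted p = 0.536), and ATP2A3 fell by 1.20 on the log2 scale (SE 0.44, edgeR adjusted p = 0.0434) when NC 3 was left out as well. ATP2B3 had no count in any library, which allows up to 0.0213 to 0.0268 FPKM (limit of 3 counts, counting error only).

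No sodium-calcium exchanger was expressed at the testing level. SLC8A1, the exchanger best known from heart, had 24, 14 and 17 counts in NC and 27, 18 and 16 in the labelled libraries. SLC8A2 had 7, 4 and 0 counts in NC and 28, 31 and 29 in the labelled libraries, and was singled out after its values were seen. Its counts in the labelled libraries were all above those in NC. The ratio of the summed counts, 88 against 11, was 7.58 when scaled to the library totals (exact 95% interval 4.04 to 15.7, counting error only). When no filter was applied to low values, SLC8A2 rose by 2.76 on the log2 scale (SE 0.55, edgeR adjusted p = 0.00397) and was 1 of 7 members that passed, beside 4.12% of the 34080 genes tested in that way. Without NC 3 as well, it rose by 2.14 (SE 0.45, edgeR adjusted p = 5.50e-05).

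Store-operated entry refills the ER through ORAI pores gated by STIM sensors. ORAI1, the classical pore, was at 5.86, 5.12 and 6.10 FPKM in NC and 4.88, 4.40 and 4.71 FPKM in the labelled libraries. ORAI2 was at 7.96, 6.58 and 7.08 FPKM in NC and 5.26, 6.13 and 5.75 FPKM in the labelled libraries. For both genes every labelled library was below every NC library, by a narrow margin. ORAI1 had a log2 fold change of -0.38 (SE 0.16, edgeR adjusted p = 0.181), and -0.26 (edgeR adjusted p = 0.101) without NC 3. That of ORAI2 was -0.42 (SE 0.13, edgeR adjusted p = 0.111), and it fell by 0.37 on the log2 scale (SE 0.08, edgeR adjusted p = 0.00147) without NC 3. The antisense gene ALKBH4 shares exon bases with ORAI2 and had 11.7% as many counts. ORAI3 was at 9.52, 11.23 and 6.84 FPKM in NC and 8.35, 9.69 and 9.57 FPKM in the labelled libraries. Its groups overlapped, its log2 fold change was -0.07 (edgeR adjusted p = 0.806), and -0.20 (edgeR adjusted p = 0.166) without NC 3. The sensors STIM1 and STIM2 overlapped between groups as well, with log2 fold changes of 0.13 (edgeR adjusted p = 0.589) and 0.16 (edgeR adjusted p = 0.701), and of 0.02 and -0.08 without NC 3 (edgeR adjusted p = 0.882 and 0.648). STIM1 made up 66.3% to 75.5% of the STIM pair in NC and 67.0% to 72.7% in the labelled libraries.

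Most TRP and PIEZO channels admit calcium, on mechanical, thermal or lipid signals among others. TRPV2, a cation channel of the plasma membrane and endosomes, was at 1.41, 1.78 and 0.87 FPKM in NC and 0.55, 0.26 and 0.51 FPKM in the labelled libraries, from 53, 67 and 41 counts against 23, 11 and 23. All labelled libraries were below all NC libraries. TRPV2 had a log2 fold change of -1.68 (SE 0.36, edgeR adjusted p = 0.0530), and it fell by 1.87 on the log2 scale (SE 0.29, edgeR adjusted p = 7.97e-05) without NC 3. It had the largest absolute log2 fold change among the 32 tested members in both comparisons, and was tested only because NC was above the minimum.

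TRPM7, a channel joined to a kinase that also carries magnesium, was at 17.72, 17.73 and 19.43 FPKM in NC and 22.83, 25.02 and 24.78 FPKM in the labelled libraries. The labelled libraries were all higher and NC 3 was the highest NC library. Its log2 fold change was 0.31 (SE 0.14, edgeR adjusted p = 0.206), and 0.42 (SE 0.05, edgeR adjusted p = 4.34e-06) without NC 3. PIEZO1, a channel opened by membrane stretch, was at 13.34, 11.62 and 4.22 FPKM in NC and 19.04, 17.08 and 16.28 FPKM in the labelled libraries, all higher. PIEZO1 had a log2 fold change of 0.79 (SE 0.34, edgeR adjusted p = 0.197), and 0.46 (SE 0.07, edgeR adjusted p = 3.81e-05) without NC 3. CTU2, which shares exon bases with it, had 8.64% as many counts.

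TRPC1, a subunit of canonical TRP channels, was at 7.83, 8.62 and 5.33 FPKM in NC and 5.53, 5.87 and 6.11 FPKM in the labelled libraries. By FPKM the NC 3 library was the lowest, while by normalised CPM it lay just above the labelled libraries. The log2 fold change was -0.39 (SE 0.16, edgeR adjusted p = 0.181), and TRPC1 fell by 0.52 on the log2 scale (SE 0.09, edgeR adjusted p = 0.000214) without NC 3. TRPM4, a channel opened by internal calcium, overlapped between groups, with NC 3 at 0.86 FPKM and the other libraries at 2.99 to 3.87 FPKM. TRPM4 had a log2 fold change of 0.17 (SE 0.44, edgeR adjusted p = 0.831), and -0.25 (SE 0.11, edgeR adjusted p = 0.0839) without NC 3. TRPV4 and PIEZO2 had 1 count each over the 6 libraries, and TRPC6 had none, which allows up to 0.0381 to 0.0481 FPKM.

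Of the mitochondrial uniporter, the pore gene MCU was at 9.05, 9.17 and 10.75 FPKM in NC and 8.2, 8.32 and 7.80 FPKM in the labelled libraries. All labelled libraries were lower and NC 3 was the highest. MCU had a log2 fold change of -0.35 (SE 0.15, edgeR adjusted p = 0.196), and -0.19 (edgeR adjusted p = 0.0679) without NC 3. MICU2, its gatekeeper, was at 8.98, 8.41 and 10.20 FPKM in NC and 8.65, 8.64 and 8.91 FPKM in the labelled libraries, with overlap and a log2 fold change of -0.17 (edgeR adjusted p = 0.487), or -0.02 (edgeR adjusted p = 0.899) without NC 3.

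Calmodulin binds calcium and switches on CaMKII and other enzymes. CALM2 was at 34.12, 37.78 and 72.68 FPKM in NC and 28.39, 31.28 and 31.28 FPKM in the labelled libraries. NC 3 was far above every other library, and all labelled libraries were lower than NC. The log2 fold change was -0.79 (SE 0.33, edgeR adjusted p = 0.186), and CALM2 fell by 0.27 on the log2 scale (SE 0.06, edgeR adjusted p = 0.00110) without NC 3. Calmodulin pseudogenes can share reads with it. CALM2P2 had 38, 33 and 14 counts in NC and 82, 114 and 109 in the labelled libraries, against 21172 counts for CALM2 in all, so CALM2 is uncertain to that extent. CALM3 was at 22.54, 23.01 and 21.81 FPKM in NC and 25.08, 20.57 and 21.88 FPKM in the labelled libraries, with overlap and a log2 fold change of -0.08 (edgeR adjusted p = 0.683), or -0.04 (edgeR adjusted p = 0.677) without NC 3.

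CAMK2A, the CaMKII gene best known from neurons, was at 0.41, 0.49 and 0.14 FPKM in NC and 0.84, 0.84 and 0.79 FPKM in the labelled libraries, all higher. Its log2 fold change was 1.21 (SE 0.37, edgeR adjusted p = 0.109), and 0.84 (SE 0.18, edgeR adjusted p = 0.00151) without NC 3. It was tested only because the labelled libraries were above the minimum. CAMK2D was at 5.78, 5.66 and 6.22 FPKM in NC and 4.54, 4.88 and 4.98 FPKM in the labelled libraries, all lower. CAMK2D had a log2 fold change of -0.39 (SE 0.13, edgeR adjusted p = 0.130), and it fell by 0.28 on the log2 scale (SE 0.06, edgeR adjusted p = 0.00174) without NC 3. CAMK2G was at 6.37, 6.29 and 5.78 FPKM in NC and 7.02, 6.87 and 7.04 FPKM in the labelled libraries, which were all higher at a log2 fold change of 0.10 (edgeR adjusted p = 0.583), or 0.11 (edgeR adjusted p = 0.197) without NC 3.

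The summed FPKM of the CaMKII family lay between 12.1 and 12.8 in every library. Within that near-constant sum CAMK2D held 45.5% to 51.2% in NC and 36.5% to 38.8% in the labelled libraries, CAMK2G 47.6% to 50.7% and 54.5% to 56.5%, and CAMK2A 1.15% to 3.94% and 6.16% to 6.76%. CAMK2B, untested, had 0, 1 and 0 counts in NC and 5, 2 and 2 in the labelled libraries. CAMKK2, an upstream kinase, overlapped between groups with a log2 fold change of -0.13 (edgeR adjusted p = 0.594), or 0.02 (edgeR adjusted p = 0.869) without NC 3.

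**Figure D4:**
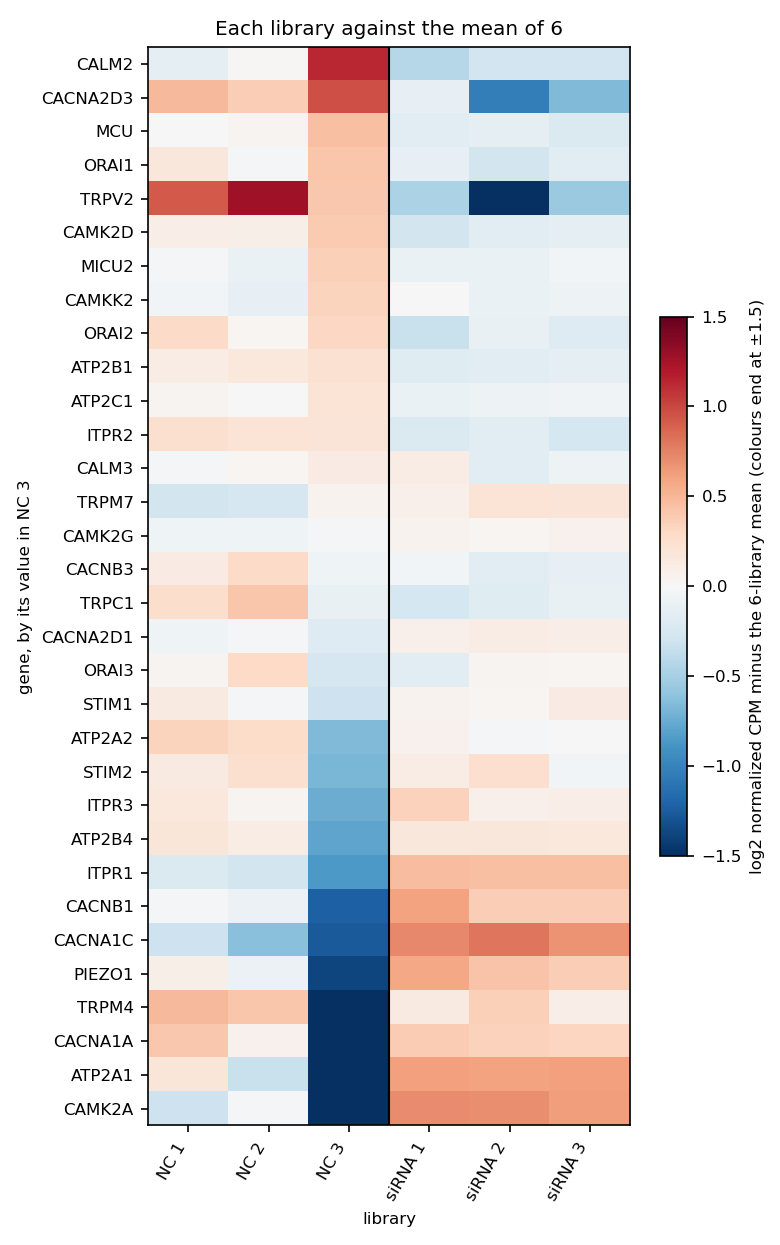
Log2 normalised CPM of the 32 tested members minus the mean over the 6 libraries, in colour ending at 1.5 either way, with genes in rows ordered by their value in NC 3 and libraries in columns. The median over members is -0.09 in NC 3, where CAMK2A, ATP2A1, CACNA1A and TRPM4 are the lowest and CALM2 the highest.

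The 23 untested members had a mean of 0 to 0.252 FPKM, and 8 members had at most 3 counts in each library. Of the 21 untested members with a count, 1, SLC8A2, passed in the comparison without a filter on low values. Across the 32 tested members, the log2 fold change correlated with log2 exonic length at a Pearson r of 0.48 and a Spearman rho of 0.38, and at 0.46 and 0.31 without NC 3. Over all 15870 tested genes these were -0.17 and -0.01. The points share the same 6 libraries and genes are not independent replicates. The members are long genes, with a median exonic length of 8431.5 bases against 4070.5 bases for all tested genes. In NC 3 against NC 1 and NC 2 the relation over members ran the other way, with an r of -0.28. Over all tested genes that r was 0.12. The part of gene length and of NC 3 in the differences was not tested.

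Other genes of calcium handling were read from a list of 100 genes that are not members, of which 61 were tested. With all 6 libraries 1 of them passed, again beside 3.09% of tested genes. It was PLCB4, a phospholipase C that makes IP3, at 0.51, 0.47 and 0.27 FPKM in NC and 0.99, 1.04 and 1.10 FPKM in the labelled libraries. PLCB4 rose by 1.26 on the log2 scale (SE 0.20, edgeR adjusted p = 0.0320), and by 1.06 without NC 3 (edgeR adjusted p = 1.88e-06). PLCB4 was tested only because the labelled libraries were above the minimum. As with CACNA1C, its edgeR adjusted p was 0.0677 without NC 1, 0.105 without NC 2, and 0.179, 0.206 and 0.201 without siRNA 1, 2 and 3. The log2 fold change of PLCB4 stayed between 1.06 and 1.39 over its alternatives. Over the 61 genes the median was -0.04. Without NC 3, 31 of them passed, with 14 higher (23.0%, beside 16.9% of tested genes) and 17 lower (27.9%, beside 18.3%). The higher genes include PLCB4 and SLN, and the lower ones MCOLN2. SLN reached the testing level only through the labelled libraries and MCOLN2 only through NC, the groups where each was higher. As with PLCB4, these genes had to differ to be tested, and their counts among genes called are no support.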

How the data were processed

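The 6 RNA sequencing libraries of U87-MG, 3 NC and 3 labelled GRIK1 siRNA, were grouped by their labels. The submitters' processing notes name cutadapt 1.9.1, HISAT2, HTSeq and GRCh38. The test the authors used and the strand setting are not given in the sources used here. The authors deposited whole-number counts per gene, without normalization, and FPKM values. The deposited FPKM equalled the count divided by exonic length and library total for 100% of values after rounding. Columns left unassigned numbered 0, and 0 entries name no gene.

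Genes whose 6 libraries averaged 0.5 FPKM or more were tested on counts with the quasi-likelihood test of edgeR 4.0.16 (R 4.3.3) with TMM scaling and no covariate, and p-values were adjusted by Benjamini-Hochberg over 15870 genes. The fit was tested on counts simulated with the spread of all 6 libraries. It recovered 48 of 105 genes changed 2-fold and 78 of 95 changed 4-fold, with 14 false calls. A fold change is on the log2 scale and a gene passed at an adjusted p under 0.05. Alternatives were RLE scaling, no filter, a mean of at least 1 FPKM, DESeq2 1.42.0, robust dispersion, limma 3.58.1 (voom with quality weights), a replicate block and leaving out each library. Leaving out both the filter and NC 3 was chosen after seeing the data. Members and lists were chosen with earlier results of these data known. By rule, the text names in each role the 2 tested members highest in FPKM, the 2 with the largest fold change, any that passed, and the untested member with the most counts. TRPC1, TRPM4, ATP2B4, STIM1, STIM2, CAMK2D, CAMK2G, CAMKK2, RYR3, SLC8A2, SPARC, PIEZO2, ATP2B3, TRPC6, SLN and MCOLN2 were named after their values were seen. Promoters came from RefSeq on GRCh38.p14. GENCODE 29 gave exons of overlapping genes. Python 3.11.15, pandas 2.3.3, numpy 2.4.6, scipy 1.17.1 and matplotlib 3.10.9 did the rest.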

Additional observations from a re-analysis of the deposited data

How the results depend on the processing

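The number of members with an adjusted p under 0.05 was 1 with all 6 libraries. It was also 1 with RLE scaling (3.12%, beside 3.06% of tested genes), a mean of at least 1 FPKM (3.45%, beside 4.09%) and robust dispersion (3.12%, beside 2.60%). It was 7 of 53 without a filter (13.2%, beside 4.12%) and 7 with DESeq2 (21.9%, beside 11.4% of all genes with an adjusted p). It was 18 with limma voom quality weights (56.2%, beside 39.9%). With 1 library left out it was 0 to 17, the 17 being without NC 3 (53.1%, beside 35.2%). The 1 member at a mean of at least 1 FPKM was CACNA1C, at means of 0.737 FPKM in NC and 2.06 FPKM in the labelled libraries. It reached that stricter level only through the labelled libraries, where it was higher, so that setting is no support. With any other library left out, or with the block, 0 of the 15870 tested genes passed in edgeR. With a log2 fold change over 1 as well, the number was 1. It was 6 without a filter (11.3%, beside 1.95% of all genes) and 4 with DESeq2 (12.5%, beside 3.40%). It was 3 with voom quality weights (9.38%, beside 4.65%), and 0 to 2 with 1 library left out. Besides CACNA1C, the DESeq2 members were CACNA2D3, TRPV2 and CAMK2A, the voom members CACNA2D3 and TRPV2, and the member without NC 3 TRPV2. These had to differ to be tested, so their part in those counts is no support. The same holds for their part in the 7 with DESeq2, the 18 with voom and the 17 without NC 3. The median log2 fold change of the members was -0.05, and 0.11 without a filter, where it takes in 53 members, or -0.07 over the same 32, and -0.061 to 0.078 with 1 library left out. Of the other calcium genes 1 passed, and 3 did without a filter (3.37%, beside 4.12%), 0 at a mean of at least 1 FPKM, which leaves PLCB4 out (beside 4.09%), 2 with DESeq2 (3.28%, beside 11.4%), 32 with voom quality weights (52.5%, beside 39.9%) and 0 to 31 with 1 library left out. The 7 members that passed with DESeq2 were all among the 17, as were 17 of the 18 with voom quality weights. The quality weight of NC 3 was 0.0499, against 1.02 to 2.60 for the other libraries. The voom fit thus nearly leaves NC 3 out, and its overlap with the 17 is no separate result. Leaving NC 3 out of the count of members without overlap was chosen after seeing the data.

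With the replicate number as a block in edgeR, 0 members passed at either threshold and 0 of the other calcium genes did, while 12 members (37.5%, beside 20.9% of tested genes) had an unadjusted p under 0.05. Deviations from the group mean correlated at -0.07, 0.04 and -0.04 for libraries with the same number, and at -0.061 to 0.084 for different numbers. The NC mean includes NC 3, which stood apart, so these values cannot decide whether the numbers pair the libraries. Over the 12 or 13 alternatives of each gene, 27 of 32 tested members had a single sign. The exceptions were ATP2A2, at 0.030 with the replicate block and -0.29 to 0.13 with 1 library left out (0.10 without NC 2, 0.13 without NC 1), ORAI3, at -0.20 to 0.070 (0.070 without NC 2), STIM2, at -0.096 with voom quality weights and -0.078 to 0.33, TRPM4, at -0.21 and -0.25 to 0.45, and CAMKK2, at 0.014 and -0.22 to 0.020, the last 3 turning without NC 3. The cause was not tested. GRIK1 had a positive log2 fold change in each alternative, from 0.19 to 0.91. At this depth no difference was detectable for the 8 members with at most 3 counts in each library.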

Other observations

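Among the 100 other calcium genes, 61 were tested, and those named here were chosen after their values were seen. PLCB3, a phospholipase C that makes IP3, was at 10.81, 9.78 and 5.70 FPKM in NC and 13.08, 13.31 and 12.63 FPKM in the libraries labelled GRIK1 siRNA, all of which were higher. PLCB3 had a log2 fold change of 0.50 (SE 0.19, edgeR adjusted p = 0.164) with all 6 libraries, and it rose by 0.31 on the log2 scale (SE 0.07, edgeR adjusted p = 0.00186) without NC 3.

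CALR, which encodes the ER calcium buffer calreticulin, was at 2353, 2407 and 1481 FPKM in NC and 1565, 1561 and 1535 FPKM in the labelled libraries. NC 3 was below the labelled libraries by FPKM, while by normalised CPM it lay above them, at 4675 against 4209 to 4267. CALR had a log2 fold change of -0.49 (edgeR adjusted p = 0.164) with all 6 libraries, and fell by 0.64 on the log2 scale without NC 3 (SE 0.04, edgeR adjusted p = 2.32e-09). NFATC4, a calcium-driven transcription factor, was at 7.21, 6.87 and 2.48 FPKM in NC and 3.88, 3.74 and 3.30 FPKM in the labelled libraries, so the labelled libraries lay between NC 3 and the other NC libraries. NFATC4 had a log2 fold change of -0.66 (edgeR adjusted p = 0.250), and fell by 0.98 on the log2 scale (SE 0.08, edgeR adjusted p = 9.15e-08) without NC 3.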
